A study of Sus scrofa with 40 samples.

Results

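The stress genes described here are the p53-linked genes MDM2, CDKN1A, BTG2 and DYRK2, the GADD45 genes GADD45A, GADD45B and GADD45G, and the polo-like kinases PLK2 and PLK3. Their rows were taken from the array files as the non-control probes whose gene name equals one of these 9 symbols, or whose description gives the symbol in brackets. This rule found 10 probes of 43803, which stand for 9 transcript identifiers of 35955 and for 8 of the 9 symbols. GADD45B had no row by this rule and was not analysed here. CDKN1A was represented by 2 identifiers with 1 probe each, and BTG2 by 2 probes under 1 identifier.

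In the kidneys kept cold after warm ischemia, BTG2, PLK3 and DYRK2 were higher than in control kidneys, in both tissues and at both storage times. BTG2 was 3.04-fold to 3.86-fold higher, PLK3 1.89-fold to 2.23-fold and DYRK2 1.64-fold to 1.72-fold. Each of these calls was lost under 1 or 2 of 13 alternatives for BTG2 and under 2 to 4 for PLK3 and DYRK2. With normexp background correction all DYRK2 calls were lost, at log2 differences of 0.24 to 0.39, and so were those of PLK3 in the cortex. With the slide as a block, the 24 h cortex calls of all 3 genes were lost. The rise of DYRK2 holds for 1 row of the array, and a second transcript of the gene that lies outside the rule was not called. After warm ischemia alone, BTG2 and PLK3 were already higher in the corticomedullary junction, by 2.47-fold and 1.88-fold, and no member was called in the cortex. Of these 2 calls, that of BTG2 was lost under 2 of 13 alternatives, and that of PLK3 under 3 and in 7 of 10 fits without 1 array. The difference between the tissues in this response was itself not called for either gene (adjusted p = 1.00 in limma). GADD45A was lower in the cortex after 6 h of cold storage, at 0.517 times the control level, a call near the threshold (adjusted p = 0.0452) that was lost under 6 of 13 alternatives and in 7 of 10 fits without 1 array. The p53 targets CDKN1A and MDM2, together with GADD45G and PLK2, were not called in any of the 19 comparisons.

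As background, p53 is a transcription factor that is held at a low level by the ubiquitin ligase MDM2 and that, when stabilised by damage, switches on genes which halt the cell cycle or start repair and death programs. CDKN1A (p21, an inhibitor of cyclin-dependent kinases), MDM2 itself, BTG2 (an antiproliferative co-factor that also promotes mRNA deadenylation) and GADD45A (a small stress protein that binds PCNA, CDK1 and the kinase MAP3K4) belong to that set. PLK2 and PLK3 are stress-responsive polo-like kinases, and DYRK2 is a kinase that phosphorylates p53. Several of these genes, BTG2 and PLK3 among them, are in addition immediate early genes, whose short-lived mRNAs can rise without p53. In the kidney, CDKN1A in tubule cells is a known response to ischemic injury.

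All kidneys came from Large White pigs 3 months old, without any transgene or drug named in the labels, and per the study's methods from brother animals that went through the same anesthesia and surgery. Control kidneys (Ctl) were sampled at once, the warm ischemia kidneys (WI) were held clamped for 60 min at 37 °C, and the third set was clamped in the same way, flushed with University of Wisconsin solution and stored at 4 °C, with samples after 6 h (WI+CS6h) and, from the same kidneys, after 24 h (WI+CS24h). Cortex (C) and corticomedullary junction (CMJ) were sampled in each condition, giving 8 groups of 5 arrays from 15 kidneys. The kidneys were not reperfused, and no group was stored cold without warm ischemia, so that cold storage was seen only on top of it and, in the stored kidneys, in other animals than those of the Ctl and WI groups.

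Between 57.0% and 69.9% of the spots of an array were well above background, and all 9 member identifiers were so on all 40 arrays. The 2 lowest arrays were both of WI+CS6h-C, replicate 3 at 57.2% and replicate 5 at 57.0%, and the next was at 61.4%. Arrays were on 10 slides of 4, scanned on 2 days. Tubule markers were present: all 8 measured proximal tubule markers of the 12 listed were well above background on 40 arrays. Of 6 fat cell markers, LEP, FABP4, CIDEC and LPL were so on 40 arrays, ADIPOQ on 34 and PLIN1 on 1. The log2 of the summed linear signals of that list, which its brightest probes dominate, was 9.33 to 9.46 in Ctl-C, 9.17 to 9.68 in WI-C, 9.56 to 9.95 in WI+CS6h-C and 9.59 to 9.96 after 24 h, with no overlap between Ctl-C and the cold-stored cortex. LPL was the 1 of 6 that was called against Ctl-C after 6 h, at 1.06 (adjusted p = 0.0482), and 0 of 6 were called in CMJ versus Ctl-CMJ, where the sums overlapped. The loop of Henle transporter SLC12A1 was higher in Ctl-CMJ than in Ctl-C by 1.24 on the log2 scale (adjusted p = 0.0119). Of 6 collecting duct markers, 2 were higher than in Ctl after 6 h and 1 after 24 h in C (4.02% and 2.5% of all identifiers were called), and 1 after 6 h and 2 after 24 h in CMJ (3.19% and 3.65%). In CMJ 1 of 5 endothelial markers was higher at each storage time and 1 of 8 proximal tubule markers after 6 h, and no marker of any list was called lower than Ctl. The same sum over the collecting duct list, whose brightest probe is that of AQP2, was 12.55 to 13.15 in Ctl-C and 12.97 to 13.22 in WI+CS6h-C. Neither of the 2 measured podocyte markers was called, with sums on that scale of 6.55 to 6.78 in Ctl-C and 6.82 to 7.28 in WI+CS6h-C. The part of these cell types in the results was not tested, and in whole tissue fewer cells of a type and less RNA per cell cannot be told apart.

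Values below are log2 signals after quantile normalization over the 40 arrays, and differences are log2 differences of group means. A difference was called at an adjusted p under 0.05 in limma's moderated test over all identifiers and an absolute log2 difference of at least 0.5. Signals of different probes are not set against each other, since a probe's brightness depends on its own sequence.

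BTG2 was measured by 2 probes, and short windows of them are shown because both probes gave the rise. Capitals mark ATTTA, the core of the AU-rich elements known from short-lived mRNAs, and AATAAA, the polyadenylation signal. PLK3, DYRK2 and GADD45A are shown beside them as the other members with a called difference.
BTG2, probe 1: tattttaaatgaagagctATTTAtatatat
BTG2, probe 2: ctattaagtaaaAATAAAtaatagtagttt
PLK3: ttttATTTAttgacagacATTTATTTAttg
DYRK2: atgatgctcatgtgatgatgctcccaatca
GADD45A: aaactatgtattaATTTAggatggttggag
On the strand as the files give it, ATTTA was present in 4 of the 10 member probes and in 9.33% of all 43603 distinct probes, and AATAAA in 4 of 10 and in 9.6% of all. On the reverse complement, ATTTA was in 5 of 10 member probes and 11.2% of all, and AATAAA in 2 of 10 and 4.17% of all. The longer TATTTAT, which contains ATTTA, was in 3 of 10 member probes and 1.16% of all as given, and in 3 of 10 and 1.21% on the reverse complement. These counts describe letters in probes and were not tested.

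BTG2 had the largest differences from Ctl among the members, in both tissues after cold storage. The 5 Ctl-C arrays read 9.32, 8.92, 9.33, 8.52 and 9.69, and the WI-C arrays 9.63, 9.23, 9.35, 9.56 and 9.49. The WI+CS6h-C arrays read 10.83, 11.07, 11.24, 11.18 and 9.79, and those of WI+CS24h-C 11.09, 10.59, 11.19, 10.93 and 10.01. In CMJ, the Ctl arrays read 9.10, 8.76, 8.87, 8.47 and 9.36, the WI arrays 10.32, 9.80, 10.42, 9.88 and 10.65, the WI+CS6h arrays 10.53, 10.84, 11.08, 11.00 and 10.40, and the WI+CS24h arrays 10.99, 10.73, 11.20, 11.04 and 10.35. Every ischemic CMJ array was above every control CMJ array, while in cortex the WI arrays lay among the controls and the cold-stored arrays above both.

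The log2 difference of BTG2 from Ctl-C was 1.67 ± 0.27 (SE) in WI+CS6h-C (adjusted p = 0.00203) and 1.61 ± 0.27 in WI+CS24h-C (adjusted p = 0.0031). From Ctl-CMJ it was 1.30 ± 0.20 in WI-CMJ (adjusted p = 0.00503), 1.86 ± 0.20 in WI+CS6h-CMJ (adjusted p = 3.61e-05) and 1.95 ± 0.20 in WI+CS24h-CMJ (adjusted p = 1.78e-05). Its difference in WI-C was 0.30, with a 95% interval of -0.28 to 0.87, and was not called. The 2 BTG2 probes gave the same picture: in WI+CS6h-C versus Ctl-C both differences were 1.67, and in WI-CMJ versus Ctl-CMJ, where they were furthest apart, 1.5 and 1.1. Within the slides that held both groups, WI+CS6h was higher than Ctl on 4 of 4 slides in each tissue, by 0.10 to 2.72 in C and by 1.48 to 2.53 in CMJ. On scan day 1 alone and day 2 alone, the WI+CS6h difference was 1.68 and 1.66 in C and 1.51 and 2.09 in CMJ, and that of WI-CMJ 0.89 and 1.75. Of these calls, that of WI+CS6h-C was lost on day 2, and those of WI+CS6h-CMJ and WI-CMJ were lost on day 1. With the slide as a block, the BTG2 calls of WI-CMJ and WI+CS24h-C were lost (adjusted p = 0.202 and 0.15), with differences of 1.42 and 1.57. The low value of 0.10 came from the slide with replicate 5 of WI+CS6h-C, whose 9.79 lay far below the other 4 arrays of its group.

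Set against WI in place of Ctl, BTG2 was higher in WI+CS6h-C by 1.37 (adjusted p = 0.0131) and in WI+CS24h-C by 1.31 (adjusted p = 0.0204). The second of these calls was lost in 4 of the 10 fits without 1 array, those without WI-C replicate 2 or 3 or WI+CS24h-C replicate 1 or 3, where the difference was 1.20 to 1.28. With the slide as a block the differences were 1.40 and 1.37, and both calls were lost (adjusted p = 0.404 and 0.156). In CMJ the corresponding differences from WI were 0.55 and 0.65 and were not called (adjusted p = 0.154 and 0.0874). The 24 h difference of BTG2 in CMJ was called with quantile normalization by group (0.73, adjusted p = 0.0216) and without WI+CS24h-CMJ replicate 5 (0.77, adjusted p = 0.0409). Comparisons against Ctl and against WI share the cold-stored arrays, so they are not independent readings.

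PLK3, a kinase linked to DNA damage and hypoxia responses, moved in the same comparisons as BTG2 against Ctl. Its Ctl-C arrays read 6.73, 6.20, 6.87, 6.09 and 6.76, its WI-C arrays 6.81, 7.48, 7.20, 6.80 and 6.79, its WI+CS6h-C arrays 7.11, 7.35, 7.73, 7.61 and 7.53, and its WI+CS24h-C arrays 7.31, 7.09, 7.27, 7.75 and 7.82. Its Ctl-CMJ arrays read 6.64, 6.24, 6.74, 6.22 and 6.92, its WI-CMJ arrays 7.30, 7.63, 7.48, 7.49 and 7.42, its WI+CS6h-CMJ arrays 7.07, 7.54, 7.80, 7.88 and 8.11, and its WI+CS24h-CMJ arrays 7.39, 7.37, 7.93, 7.81 and 8.05. All cold-stored arrays were above all controls of their tissue, and so were the WI-CMJ arrays, whereas the WI-C arrays overlapped the controls.

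PLK3 differed from Ctl-C by 0.94 ± 0.19 in WI+CS6h-C (adjusted p = 0.00904) and 0.91 ± 0.19 in WI+CS24h-C (adjusted p = 0.0126). In CMJ the differences from Ctl were 0.91 ± 0.19 for WI (adjusted p = 0.0291), 1.13 ± 0.19 for WI+CS6h (adjusted p = 0.00158) and 1.16 ± 0.19 for WI+CS24h (adjusted p = 0.00119). The WI-CMJ call was lost in 7 of the 10 fits without 1 array, those without Ctl-CMJ replicate 1, 2 or 4 or WI-CMJ replicate 2, 3, 4 or 5, while the difference ran from 0.83 to 1.00 over the 10. With the slide as a block, the calls of WI-CMJ, WI+CS24h-C and WI+CS24h-CMJ were lost (adjusted p = 0.260, 0.259 and 0.0576). The PLK3 difference in WI+CS6h-C was 0.56 on scan day 1 alone and 1.19 on day 2 alone, and it was called on neither. In WI-C the difference was 0.49 (95% interval 0.08 to 0.89, unadjusted p = 0.0213, adjusted p = 0.895). With normexp background correction, which was run with an added offset of 50, the PLK3 differences fell to 0.44 after 6 h and 0.38 after 24 h of storage in cortex, neither called, and to 0.53 in WI-CMJ. Against WI, no PLK3 difference was called in either tissue, with values from 0.22 to 0.45, but with quantile normalization by group the difference of WI+CS6h-C from WI-C was 0.58 and was called (adjusted p = 0.0486).

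DYRK2 separated the cold-stored kidneys from both other conditions. Its row, named by the bracketed symbol, read 6.59, 6.72, 6.60, 6.64 and 6.73 on the Ctl-C arrays and 6.78, 6.83, 6.60, 6.47 and 6.68 on those of WI-C. The WI+CS6h-C arrays read 7.54, 7.27, 7.67, 7.49 and 7.21, and the WI+CS24h-C arrays 7.37, 7.33, 7.45, 7.57 and 7.18. In CMJ it read 6.56, 6.53, 6.51, 6.58 and 6.81 in Ctl, 6.68, 6.63, 6.69, 6.61 and 6.63 in WI, 7.29, 7.47, 7.59, 7.42 and 7.05 in WI+CS6h, and 7.28, 7.35, 7.46, 7.43 and 7.04 in WI+CS24h. No cold-stored array overlapped a Ctl or WI array of either tissue, and the Ctl and WI arrays overlapped each other.

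The DYRK2 differences from Ctl were 0.78 ± 0.10 in WI+CS6h-C (adjusted p = 0.000246), 0.72 ± 0.10 in WI+CS24h-C (adjusted p = 0.000533), 0.76 ± 0.10 in WI+CS6h-CMJ (adjusted p = 0.000163) and 0.71 ± 0.10 in WI+CS24h-CMJ (adjusted p = 0.000294). Against WI they were 0.77, 0.71, 0.72 and 0.67 in the same order, and all 4 were called, the highest adjusted p being 0.00125. For WI versus Ctl the 95% intervals were -0.20 to 0.22 in C and -0.16 to 0.25 in CMJ. Under normexp background correction the 4 differences from Ctl were 0.39, 0.36, 0.24 and 0.33 and none reached the fold threshold. With the slide as a block the WI+CS24h-C difference of DYRK2 was 0.71 and no longer called (adjusted p = 0.0963), as were 3 of the 4 differences from WI (adjusted p = 0.0504 to 0.178, against 0.00915 in WI+CS24h-CMJ). Within scan days the WI+CS6h-C difference of DYRK2 from Ctl-C was 0.92 and 0.69, and the call was lost on both days. A second DYRK2 transcript, ENSSSCT00000001047, which the array file names in words without the symbol and which the rule therefore left out, was not called in any comparison. Its difference from Ctl was 0.16 ± 0.13 in WI+CS6h-C (adjusted p = 0.446) and 0.04 ± 0.09 in WI+CS6h-CMJ (adjusted p = 0.914), so the rows of this gene disagreed.

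**Figure D1:**
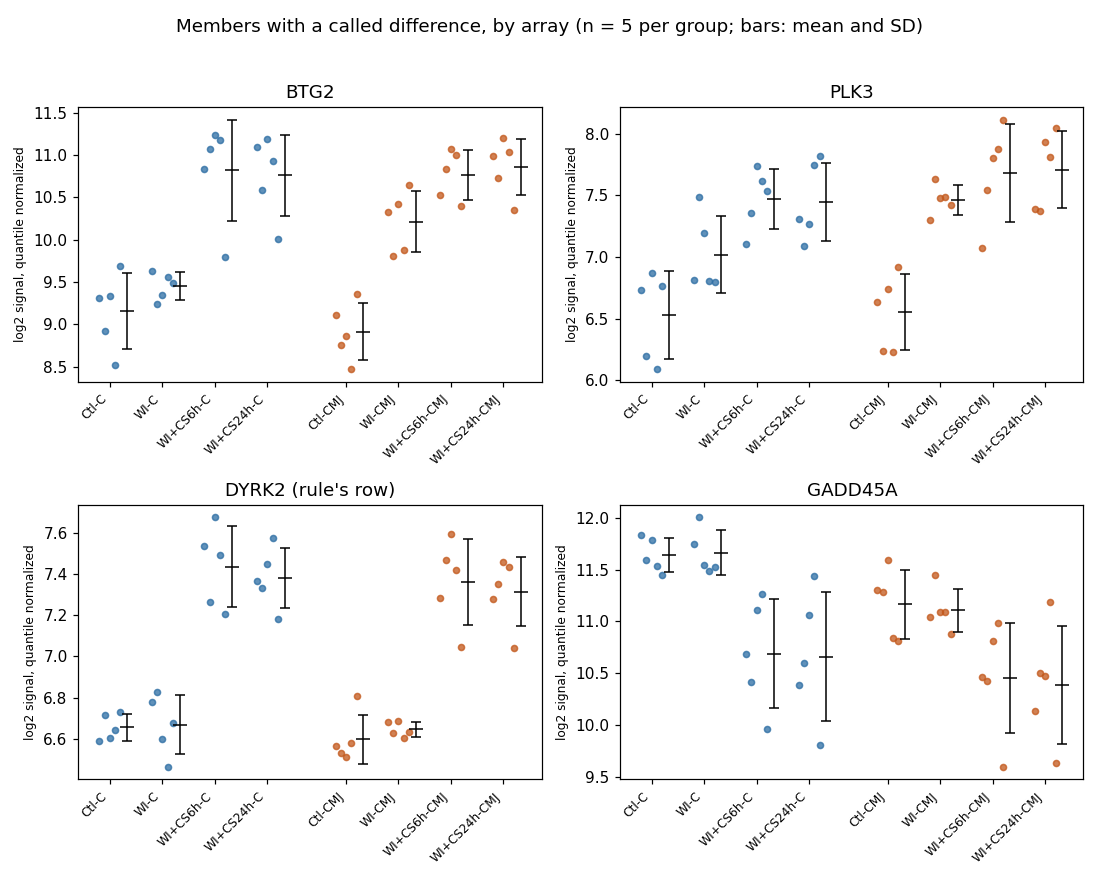
Log2 signal of BTG2, PLK3, DYRK2 and GADD45A on each of the 40 arrays by group, points in order of replicate number, cortex in blue and CMJ in orange, with the group mean and SD (n = 5) as black bars. BTG2 and PLK3 are already raised in WI-CMJ, and DYRK2 in the cold-stored groups alone. The GADD45A means are lower and its arrays more spread in the cold-stored groups, with a call against Ctl in WI+CS6h-C alone.

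GADD45A ran the other way. Its Ctl-C arrays read 11.83, 11.59, 11.79, 11.54 and 11.45, its WI-C arrays 11.75, 12.01, 11.54, 11.49 and 11.53, its WI+CS6h-C arrays 10.68, 10.41, 11.11, 11.27 and 9.96, and its WI+CS24h-C arrays 10.39, 10.60, 11.07, 11.44 and 9.81. In CMJ the arrays read 11.30, 11.28, 11.59, 10.84 and 10.81 in Ctl, 11.04, 11.45, 11.09, 11.09 and 10.87 in WI, 10.46, 10.42, 10.81, 10.98 and 9.59 in WI+CS6h, and 10.13, 10.50, 10.47, 11.19 and 9.63 in WI+CS24h. In cortex every cold-stored array was below every Ctl and WI array, and in CMJ the groups overlapped. Replicate 4 was the highest and replicate 5 the lowest of the 5 in all 4 cold-stored groups.

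The GADD45A difference from Ctl-C fell past both thresholds in WI+CS6h-C, at -0.95 ± 0.26 (adjusted p = 0.0452), and missed the adjusted p in WI+CS24h-C, at -0.98 ± 0.26 (adjusted p = 0.0519). In CMJ it was -0.71 in WI+CS6h and -0.78 in WI+CS24h (adjusted p = 0.163 and 0.106). The 6 h call was lost in 7 of the 10 fits without 1 array, those without Ctl-C replicate 1, 2, 3 or 4 or WI+CS6h-C replicate 1, 2 or 5, with differences of -1.10 to -0.77 over the 10. It was lost as well under 6 of the 13 alternatives: 75th percentile scaling (-0.82, adjusted p = 0.0979), the fit of these 2 groups alone (adjusted p = 0.079), the share of spots above background as a covariate (-0.91, adjusted p = 0.147), the slide as a block (-0.99, adjusted p = 0.0859) and each scan day alone (-0.83 and -1.03). The 24 h difference in cortex, in turn, was called under 6 alternatives: normalization by group (adjusted p = 0.0386), the filter on dim genes (0.0301), the fit per probe (0.0461), the deposited values (0.0483), the replicate block (0.0319) and the covariate (0.0458). Warm ischemia alone gave 0.02 in C and -0.06 in CMJ.

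GADD45G, a relative of GADD45A that likewise acts on stress-activated kinases, was not called. Its cortex means were 9.54 ± 0.11 (SD, n = 5) for Ctl and 9.71 ± 0.22 for WI, against 9.02 ± 0.45 after 6 h and 9.13 ± 0.40 after 24 h of cold storage. The CMJ means were 9.43 ± 0.26 for Ctl, 9.60 ± 0.11 for WI, 9.16 ± 0.36 after 6 h and 9.06 ± 0.40 after 24 h. The groups overlapped in part, with cold-stored arrays reaching down to 8.38 and no Ctl or WI array below 9.05. The nearest to a call was WI+CS6h-C versus WI-C, at -0.69 (adjusted p = 0.0789), which passed in the fit on identifiers above background (adjusted p = 0.0499). Across the 40 arrays GADD45G followed GADD45A, with Pearson's r = 0.908, and r = 0.938 for the deviations from the group means, a description over arrays that share kidneys and 1 normalization.

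PLK2 kept its mean and gained spread. Its mean was between 8.19 and 8.29 in all groups but WI-C, where it was 7.94, and its SD was 0.06 to 0.11 in the 4 Ctl and WI groups and 0.56 to 0.63 in the 4 cold-stored groups. The WI+CS6h-C arrays read 8.00, 7.73, 8.89, 8.89 and 7.92, the WI+CS24h-C arrays 7.90, 7.66, 8.88, 8.95 and 7.76, the WI+CS6h-CMJ arrays 7.65, 7.79, 8.83, 8.89 and 7.97, and the WI+CS24h-CMJ arrays 7.99, 7.77, 8.97, 8.81 and 7.88. Thus replicates 3 and 4 were high and replicates 1, 2 and 5 low in each cold-stored group, while the Ctl-C, Ctl-CMJ and WI-CMJ arrays, at 8.06 to 8.38, lay between them. Per the labels, the 6 h and 24 h samples came from the same kidneys, but whether a number marks 1 kidney is not stated. Neither tissue nor storage time split the PLK2 values, and no difference from Ctl was called (95% intervals of -0.47 to 0.63 in WI+CS6h-C and -0.49 to 0.56 in WI+CS6h-CMJ). In WI-C all 5 arrays, 7.98, 7.94, 7.99, 7.84 and 7.96, were below all Ctl-C arrays, with a difference of -0.27 ± 0.26 (SE, adjusted p = 1.00 in limma). This fit shares 1 estimate of the spread over the 4 groups of a tissue. The SE and p-value therefore carry the wide spread of the cold-stored arrays and not that of Ctl-C and WI-C alone.

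**Figure D2:**
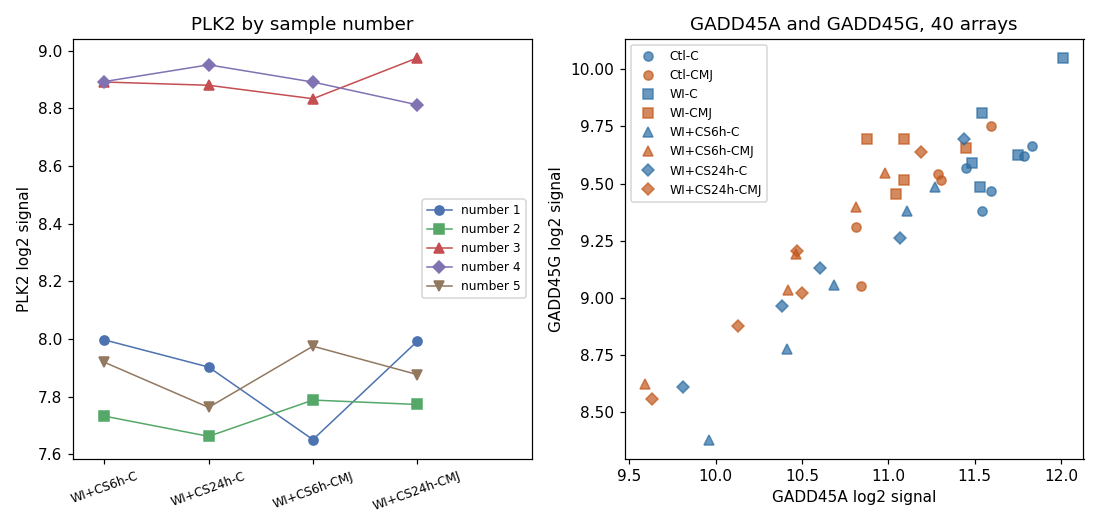
Left, PLK2 log2 signal of the 5 sample numbers in the 4 cold-stored groups, with lines joining samples of the same number. Right, GADD45G against GADD45A log2 signal on 40 arrays, cortex in blue and CMJ in orange, with a symbol per condition. Numbers 3 and 4 stay between 8.81 and 8.97 and the others between 7.65 and 8.00, and the GADD45 genes fall along 1 diagonal (r = 0.908).

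CDKN1A, a classical p53 target, was measured by 2 probes that overlap by 58 bases, of which 57 are identical, so they are close to 1 measurement. Both hold the window shown here, which is given because it contains a polyadenylation signal, in capitals.
CDKN1A: ctgcaggtgctcAATAAAtatttctggtga
Its group means lay between 9.71 and 10.07 for ENSSSCT00000032169 and between 9.74 and 10.11 for AK232851, and the rows correlated at r = 0.970 over the 40 arrays. The differences of AK232851 from Ctl-C were 0.08 in WI (95% interval -0.23 to 0.39), -0.15 in WI+CS6h (-0.46 to 0.16) and -0.29 in WI+CS24h (-0.60 to 0.02). On the Ctl-CMJ arrays AK232851 read 9.89, 9.78, 9.91, 9.80 and 9.96, and on the WI-CMJ arrays 10.11, 9.98, 10.18, 10.07 and 10.22, all above the controls, while the arrays of the other row overlapped. From Ctl-CMJ the differences of AK232851 were 0.25 in WI (-0.04 to 0.53), -0.13 in WI+CS6h (-0.41 to 0.15) and -0.10 in WI+CS24h (-0.38 to 0.18). These intervals use a spread shared by all groups of the tissue. In CMJ the SD of this row was 0.07 in Ctl and 0.09 in WI, against 0.28 after 6 h and 0.30 after 24 h of storage. For ENSSSCT00000032169 the WI+CS24h-C interval was -0.60 to -0.01. The upper bounds against Ctl in the cold-stored groups lie under 0.2 on the log2 scale for both rows, and no call was made. Its largest differences were downward against WI, at -0.37 in WI+CS6h-CMJ (adjusted p = 0.143) and -0.37 in WI+CS24h-C (adjusted p = 0.303).

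MDM2, the ubiquitin ligase that limits p53 and is induced by it, was not called in any comparison. The Ctl-C arrays read 5.59, 5.54, 5.49, 5.42 and 5.73, and the WI-C arrays 5.39, 5.60, 5.27, 5.33 and 5.44. The WI+CS6h-C arrays read 5.21, 4.97, 5.26, 5.14 and 5.57, and those of WI+CS24h-C 5.26, 5.00, 5.23, 5.23 and 5.22. The WI+CS24h-C arrays were all below the arrays of Ctl-C and WI-C, and the other cortex groups overlapped. The difference from Ctl-C was -0.33 ± 0.10 in WI+CS6h-C (adjusted p = 0.0736) and -0.37 ± 0.10 in WI+CS24h-C (adjusted p = 0.0583), under the fold threshold as well. In CMJ the group means lay between 5.14 and 5.28 and the differences from Ctl between -0.14 and -0.05. With quantile normalization by group, the MDM2 difference in WI+CS24h-C was -0.54 and was called (adjusted p = 0.00469).

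**Figure D3:**
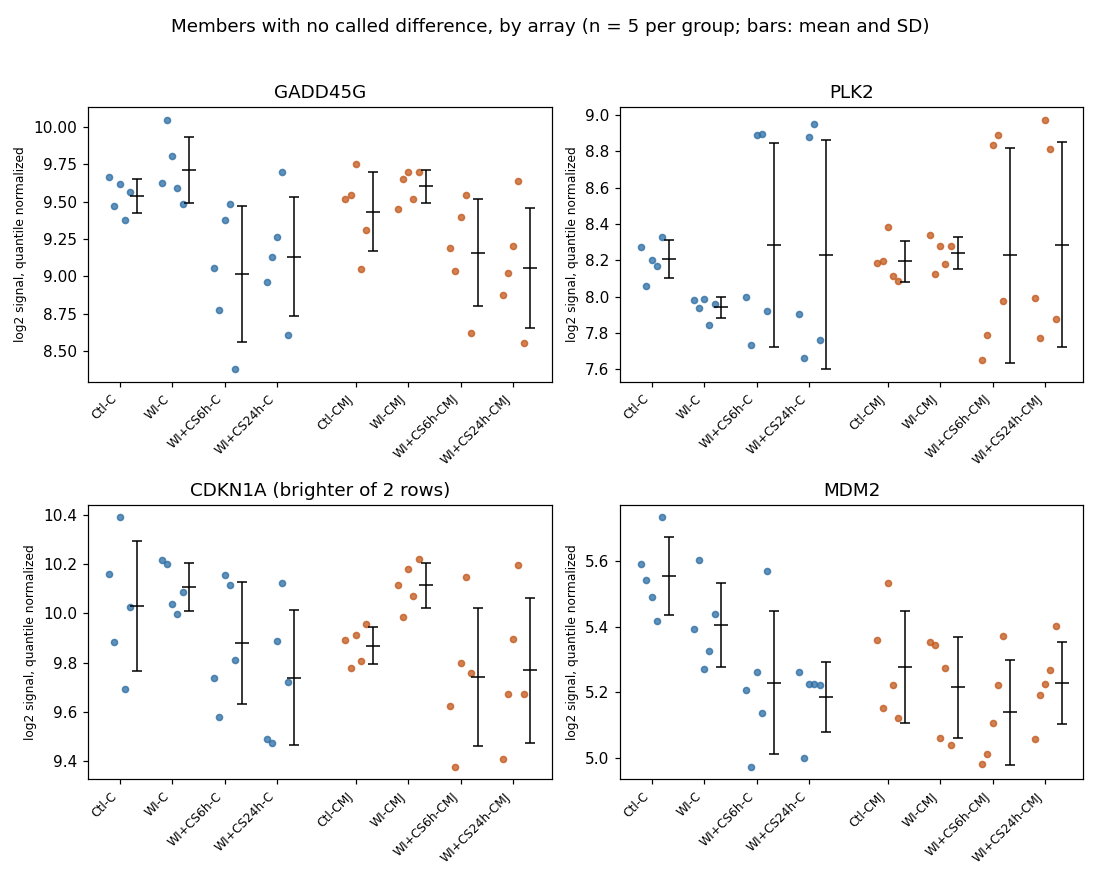
Log2 signal of GADD45G, PLK2, CDKN1A (the row AK232851) and MDM2 on each of the 40 arrays by group, points in order of replicate number, cortex in blue and CMJ in orange, with the group mean and SD (n = 5) as black bars. PLK2 splits into high and low arrays in the cold-stored groups, and the CDKN1A means stay within 9.74 to 10.11.

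Counted over the 9 identifiers, 0 were called in WI-C versus Ctl-C by limma, where 0.0946% of all identifiers were. An unadjusted p under 0.05 was found for 1 member, beside 1758 of all 35939 identifiers tested. In WI+CS6h-C versus Ctl-C 4 were called, beside 4.02% of all identifiers: 3 were higher (1.63% of all) and 1 lower (2.39%). In WI+CS24h-C versus Ctl-C 3 were called, beside 2.5%. In CMJ, 2 were called in WI (0.687% of all), 3 in WI+CS6h (3.19%) and 3 in WI+CS24h (3.65%). Against WI, 2 members were called in WI+CS6h-C (1.93% of all) and 2 in WI+CS24h-C (1.2%), and 1 in each of WI+CS6h-CMJ (2.78%) and WI+CS24h-CMJ (2.85%).

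Arrays of the groups did not overlap for 1 member in WI-C versus Ctl-C (1.68% of all identifiers), 4 after 6 h of storage (5.23%) and 5 after 24 h (5.73%). Against Ctl-CMJ the counts were 3 for WI-CMJ (3.9%), 3 after 6 h (5.96%) and 3 after 24 h (5.45%). Against WI they were 3 (3.27%) and 4 (3.38%) in C after 6 h and 24 h, and 1 (5.91%) and 1 (4.58%) in CMJ. The median log2 difference of the 9 was -0.14 in WI+CS6h-C and -0.13 in WI+CS6h-CMJ, beside 0.05 and -0.01 over all identifiers, so the rises were those of single genes.

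**Figure D4:**
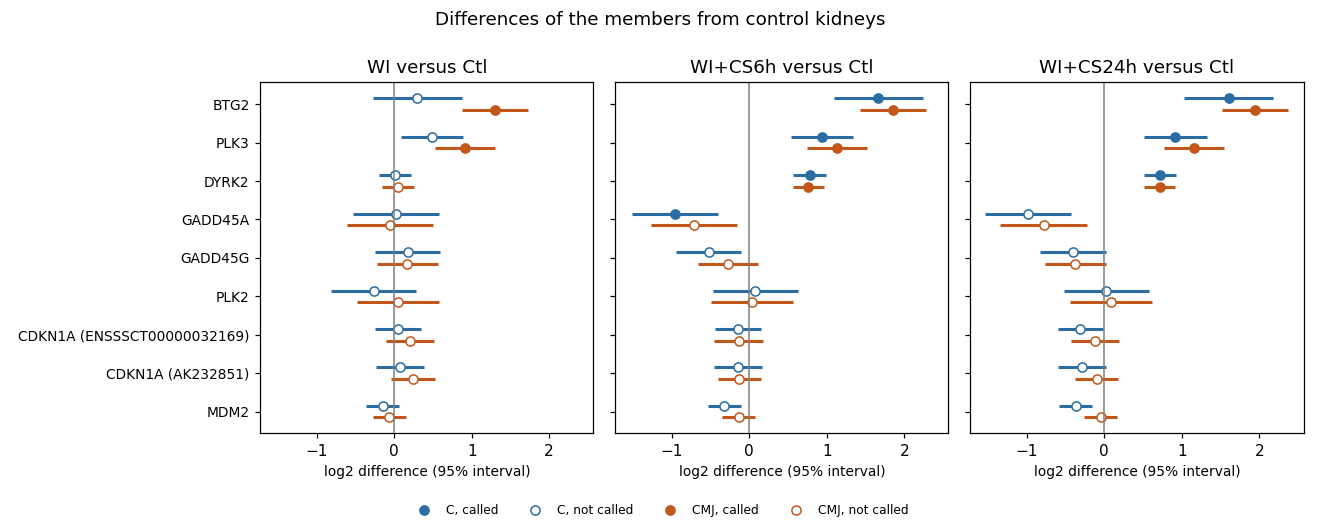
Log2 difference from Ctl of the 9 member identifiers in WI, WI+CS6h and WI+CS24h, with 95% intervals from the limma fit, cortex in blue and CMJ in orange, filled where called. BTG2, PLK3 and DYRK2 are to the right of 0 after cold storage in both tissues, and BTG2 and PLK3 in WI-CMJ, while no CDKN1A difference is called and its intervals run from -0.60 to 0.53.

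Longer storage was compared in the same 5 kidneys. In the fit of the 4 groups of a tissue, which does not pair samples, no member was called in WI+CS24h versus WI+CS6h in either tissue, where 0% of all identifiers were called in C and 0.00278% in CMJ. In that fit 0 members had an unadjusted p under 0.05, beside 1119 of 35939 identifiers in C and 1238 of 35938 in CMJ. The 95% interval of the BTG2 difference was -0.64 to 0.52 in C and -0.33 to 0.52 in CMJ, that of DYRK2 -0.26 to 0.15 in C and -0.25 to 0.15 in CMJ. In a fit of the 2 storage times alone with the sample number as a block, chosen after seeing the data, 0 members were called in either tissue and 0 had an unadjusted p under 0.05, beside 1.73% of all identifiers at that p in C and 4.78% in CMJ. The 5 differences by number had 1 sign for CDKN1A (ENSSSCT00000032169) in C, at -0.27, -0.18, -0.17, -0.09 and -0.12 (95% interval of the mean in that fit -0.37 to 0.03), and for MDM2 in CMJ, at 0.08, 0.18, 0.12, 0.04 and 0.03 (-0.03 to 0.21). The share of all identifiers with 5 differences of 1 sign was not counted, so these runs are not a result about the 2 genes. By sample number, BTG2 was higher at 24 h than at 6 h in numbers 1 and 5 and lower in numbers 2, 3 and 4 in C, by -0.48 to 0.26. In C the numbers were not shown to pair the samples of the 2 times. Their same-number correlations of deviations ran from -0.31 to 0.36, and 2 of 5 best matched their own number.

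No member was called between CMJ and C in any condition. In limma's fit of 40 arrays, which does not pair samples, 0.312% of all identifiers were called in Ctl and 0.671% in WI. At an unadjusted p under 0.05 were 1 and 3 members, beside 2190 and 2579 of all 35934 identifiers tested. After 6 h of storage 0.0807% were called and after 24 h 0%, with 0 members at that unadjusted p in either, beside 3440 and 1439 identifiers. With the sample number as a block and the arrays of 1 storage time alone, chosen after seeing the data, 0 members and 0% of all identifiers were called at either time. GADD45A was then the 1 member with an unadjusted p under 0.05 at each time, with a CMJ minus C difference of -0.23 (95% interval -0.44 to -0.02, adjusted p = 0.6) after 6 h and -0.28 (-0.51 to -0.04, adjusted p = 0.808) after 24 h in limma, beside 7.47% and 4.3% of all identifiers at that p. By number, its CMJ minus C differences were -0.22, 0.01, -0.30, -0.29 and -0.37 after 6 h and -0.26, -0.10, -0.59, -0.25 and -0.18 after 24 h. All 5 had 1 sign after 24 h also for PLK3 (0.06 to 0.66) and GADD45G (-0.11 to -0.05), and after 6 h for GADD45G (0.02 to 0.26) and CDKN1A in the row ENSSSCT00000032169 (-0.32 to -0.03). The signs of GADD45G were thus opposite at the 2 times. The share of all identifiers with 1 sign was not counted, so these runs are not a result about the members. BTG2 in WI-CMJ was above WI-C on every array, by 0.76 ± 0.25 (unadjusted p = 0.00386, adjusted p = 0.204), and 3 of the 9 identifiers did not overlap there, beside 3.17% of all. Cell type markers differed in that comparison too: 1 of 4 fibroblast markers (COL1A2, 1.51, adjusted p = 0.0145), 1 of 4 of the thick limb and distal tubule (SLC12A1, 1.16, adjusted p = 0.0125) and 1 of 8 of the proximal tubule (SLC5A1, 1.41, adjusted p = 0.00704) were called, all higher in WI-CMJ. None of 6 fat cell markers was called there, with a median difference of 0.71. The erythrocyte marker HBB was higher in WI than in Ctl by 2.59 in C and 1.59 in CMJ, uncalled (adjusted p = 0.934 and 0.526), and well above background on 5 of 5 WI-C arrays and 1 of 5 Ctl-C arrays. The part of these cell types in the BTG2 and PLK3 values was not tested. The test of whether warm ischemia moved BTG2 differently in the 2 tissues gave 1.01 ± 0.35, with a 95% interval of 0.30 to 1.71, an unadjusted p of 0.00651 and an adjusted p of 1.00. For PLK3 this difference between tissues was 0.43 ± 0.27. No identifier of the array (0%) was called for such a difference, for any of the 3 conditions. In WI, WI+CS6h and WI+CS24h, 1, 0 and 1 members had an unadjusted p under 0.05, beside 710, 1856 and 928 of all 35934 identifiers.

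Among other genes of the same pathways, called genes are counted here beside the share of all identifiers called. Of 17 measured other p53 target genes of the 30 listed, 1 was called in WI+CS6h-C, WI+CS6h-CMJ and WI+CS24h-CMJ, beside 4.02%, 3.19% and 3.65% of all identifiers, each time higher and each time EI24, an endoplasmic reticulum protein of autophagy. EI24 rose by 0.70 in WI+CS6h-C and 0.59 in WI+CS6h-CMJ (adjusted p = 0.0234 and 0.0282). The median difference of these 17 was 0.06 in WI+CS6h-C and -0.03 in WI+CS6h-CMJ, beside 0.05 and -0.01 over all identifiers.

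Of 8 measured kinases downstream of the GADD45 proteins, of 12 listed, MAP2K6, which activates p38, rose in WI+CS6h-C by 0.63 (adjusted p = 0.0198) and after 24 h by 0.57 (adjusted p = 0.042), as 1 of 8 beside 4.02% and 2.5% of all identifiers. In CMJ 0 of the 8 were called in any comparison, with median differences from Ctl of -0.03 after 6 h and -0.06 after 24 h. MAP3K5, which the study reports as lower during cold ischemia, was among the listed kinases without a matched symbol. Of 4 measured other CDK inhibitors of 7 listed, CDKN2D (p19) rose in WI+CS6h-C by 0.51 (adjusted p = 0.0258), and 0 of the 4 were called against Ctl-CMJ. It lies outside the rule for named genes, since its arrays overlap, and was named after its values were seen. None of the other BTG and TOB genes (4 measured), DYRK family genes (2 measured) and polo-like kinases (PLK4, not well above background) was called against Ctl. The 10 measured cell cycle partners of 16 listed had a median difference of 0.45 in WI+CS6h-C and 0.23 in WI+CS6h-CMJ with 0 called.

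The genes with a symbol whose pattern was most like that of each member were found among 7260 identifiers by Pearson's r over the 40 arrays, which share kidneys and processing. For BTG2 they were NR4A2 (r = 0.936), HLX (r = 0.917) and SMAD6 (r = 0.899), and for deviations from the group means these values were 0.744, 0.740 and 0.551. PLK3 lay nearest to FOS, whose 2 rows gave r = 0.916 and r = 0.914, and EGR1 (r = 0.855), and DYRK2 to FUT2 (r = 0.944), ZBTB11 (r = 0.941) and CEBPA (r = 0.940). For deviations they were lower, at 0.693 and 0.701 for FOS, 0.374 for EGR1, 0.335 for FUT2, 0.767 for ZBTB11 and 0.526 for CEBPA. GADD45A was most like CLPX (r = 0.956), HSDL2 (r = 0.951) and ETFDH (r = 0.946), and GADD45G like DHRS4 (r = 0.949), TUFT1 (r = 0.940) and PCK1 (r = 0.938), with 0.899 to 0.946 for the deviations of these 6.

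PLK2 was nearest to ICA (r = 0.892), NCOA7 (r = 0.886) and VMO1 (r = 0.878), and for deviations from the group means these values were 0.955, 0.920 and 0.954. CDKN1A had lower likeness, with OCRL at 0.829, DBI at 0.800 and SLC16A1 at 0.790 (0.783, 0.755 and 0.752 for deviations), and so had MDM2, with PPP2R1B at 0.765, LRRK2 at 0.751 and LSM11 at 0.751 (0.717, 0.783 and 0.516). Among the members, BTG2 correlated with DYRK2 at 0.849 and with PLK3 at 0.760, values that were 0.582 and 0.102 once the group means were taken out.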

How the data were processed

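Total RNA of each sample was amplified into complementary RNA labelled with Cy3, which was hybridised to 1 one-color Agilent porcine array. The authors deposited scanner intensity files written by Agilent Feature Extraction 11.5.1.1, per the labels. The processed intensity is background-subtracted and not normalized between arrays. The authors deposited in addition log2 values, used here only as an alternative. Outlier spots (10 to 85 an array) were left out, log2 intensities were quantile normalized over 40 arrays, and spots of 1 identifier were averaged. Each tissue was fitted with 4 group terms in limma 3.58.1 (R 4.3.3), and 40 arrays with 8 terms for comparisons between tissues. P-values were Benjamini-Hochberg adjusted over all identifiers. On simulated data with 200 changed genes in 35799, for WI+CS6h-C versus Ctl-C, 88.5% of changes of 2 on the log2 scale were called, with 8 false calls. The largest member difference was 1.95 (BTG2 in WI+CS24h-CMJ), so this rate does not describe the smaller changes of the members. Figures used matplotlib 3.10.9.

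Members and gene lists were chosen with earlier results of these data known. Named genes were all members, at most 3 called, non-overlapping genes per list and direction against Ctl, and for each member the 3 most similar genes. Of 35955 identifiers, 8948 had 1 symbol, and a listed gene counts as measured where its symbol was among these. Listed genes without such a match may still have a probe, as the study reports for MAP3K5 and the fibroblast gene COL1A1. Every same-number correlation of deviations was over 0.1 for WI+CS24h-CMJ with WI+CS6h-CMJ and for CMJ with C in the cold-stored groups. The best match was the own number for 4 of 5 in the first, and for 3 of 5 after 6 h and 2 of 5 after 24 h in the others. For WI+CS24h-C with WI+CS6h-C the correlations ran from -0.31 to 0.36, 3 of them over 0.1, so numbers were not shown to pair these. For groups compared with Ctl or WI the rule was not met. The labels call the kidneys of a group independent. The number of arrays limits the precision. Alternatives were other normalizations, background correction, a filter on dim genes, a fit per probe, the deposited values, replicate and slide blocks, a covariate, 2 groups alone, each scan day and leaving out each array. Positions in the genome are not given, since the files' build is not given in the sources used here. Values of some listed genes are not reported here.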

Additional observations from a re-analysis of the deposited data

Results flagged for a closer look

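Among 72 groups of 5 arrays, 8 per identifier, 3 held an array far from its fellows, and chance alone flags about 1 in 20. BTG2 on WI+CS6h-C replicate 5 was 9.79, the lowest of its group. DYRK2 on Ctl-CMJ replicate 5 was 6.81, the highest of its group and still below every cold-stored array. MDM2 on WI+CS24h-C replicate 2 was 5.00, the lowest of its group. Without WI+CS6h-C replicate 5, the BTG2 difference from Ctl-C was 1.92 and stayed called.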

How the results depend on the processing

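None of the 21 member calls changed sign under the 13 alternatives or without 1 array, and where a call was lost the cause was not tested. All 21 held under quantile normalization by tissue or by group, the filter on dim genes, the fit per probe, the deposited values and the replicate block, and 20 under 75th percentile scaling and with the share of spots above background as a covariate. With normexp background correction 11 held, with the slide block 9, with 2 groups alone 19, on scan day 1 alone 3 and on day 2 alone 7. The call of GADD45A in WI+CS6h-C was lost under 6 alternatives. Days and slides hold fewer arrays of each group. The replicate block, whose numbers do not pair samples with Ctl or WI, added 4 calls, all of GADD45A, and changed no other call: WI+CS24h-C versus Ctl-C, WI+CS6h-C versus WI-C, WI+CS24h-C versus WI-C and WI+CS24h-CMJ versus Ctl-CMJ (adjusted p = 0.0319, 0.0364, 0.0404 and 0.0382).

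Counts of called members that moved by over 1.5 times were these. In WI+CS6h-C versus Ctl-C, 4 became 2 under normexp, 1 on day 1 and 0 on day 2. In WI+CS24h-C versus Ctl-C, 3 became 5 with quantile normalization by group, 1 under normexp, 0 with the slide block, 1 on day 1 and 0 on day 2. In WI+CS6h-C versus WI-C, 2 became 4 with the filter on dim genes, 1 under normexp, 1 with 2 groups alone, and 0 with the slide block and on either day. In WI+CS24h-C versus WI-C, 2 became 1 under normexp and on day 1 and 0 with the slide block and on day 2. In WI-CMJ versus Ctl-CMJ, 2 became 0 with the slide block and on day 1, and 1 on day 2. In WI+CS6h-CMJ and WI+CS24h-CMJ versus Ctl-CMJ, 3 became 0 on day 1. In WI+CS6h-CMJ versus WI-CMJ, 1 became 0 under normexp, with the slide block and on day 1, while 1 became 2 for WI+CS24h-CMJ versus WI-CMJ with normalization by group and 0 under normexp and on day 1. For the tissue difference in the WI+CS24h response, 0 became 1 (MDM2) with normalization by group.

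Without 1 array the counts ranged from 3 to 4 against Ctl-C at both storage times, from 2 to 4 in WI+CS6h-C versus WI-C, from 1 to 3 in WI+CS24h-C versus WI-C, from 1 to 2 in WI-CMJ versus Ctl-CMJ, from 3 to 4 in WI+CS24h-CMJ versus Ctl-CMJ and from 1 to 2 in WI+CS24h-CMJ versus WI-CMJ.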
